A study of Mus musculus with 6 samples.

Results

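Adrenomedullin, its receptor *Calcrl* and the 3 receptor activity-modifying proteins *Ramp1*, *Ramp2* and *Ramp3* were followed through 6 RNA-Seq libraries labeled C2C12. These 5 genes were measured among 23231 genes with a count in at least 1 library. *Adm* and *Ramp3* were chosen because these libraries showed both at a higher level in dCas9-KRAB-En5 cells, so their difference between the groups is described below and was not tested. *Calcrl*, *Ramp1* and *Ramp2* were taken as the other members of the family. C2C12 cells are myoblasts of a mouse line, and they fuse to myotubes once serum is reduced. By the labels and the study's methods, all 6 libraries came from C2C12 cells. These had received lentivirus (multiplicity of infection 100), had been selected in puromycin (2 μg/ml) and had spent 5 days in 2% horse serum. In both groups the virus expressed dCas9-KRAB from the hUbC promoter. It joins a Cas9 that cannot cut DNA to the KRAB repressor domain. The 3 dCas9-KRAB libraries carried no enhancer sgRNA, and the 3 dCas9-KRAB-En5 libraries carried 2 sgRNAs against Myog-En5, an enhancer of *Myog*. The labels name neither clones nor separate cultures, so the p-values below measure the spread between these samples, which may be technical.

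Adrenomedullin is a secreted peptide that dilates vessels and is best known from the endothelium, where it is needed for the growth of blood and lymphatic vessels. Its receptor is assembled from a G protein-coupled receptor, CALCRL, and a single-pass partner, a RAMP, which brings CALCRL to the cell surface and sets which peptide it binds. CALCRL with RAMP2 or RAMP3 binds adrenomedullin, CALCRL with RAMP1 is the receptor for calcitonin gene-related peptide, and all of these complexes couple mainly to Gs and raise cAMP. RAMPs also pair with other family B receptors, so a RAMP transcript alone does not name a receptor.

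The sgRNAs are shown because they are the only designed difference between the groups, with the 3-base PAM of the target site in capitals. Their genome position was not checked here.
Myog-En5-sgRNA1: gaaggggttactgtcggcagAGG
Myog-En5-sgRNA2: gaccggaagattgaaccactGGG

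The counts summed to between 40554323 and 73988425 in the dCas9-KRAB libraries and between 31831093 and 40384720 in the dCas9-KRAB-En5 libraries. dCas9-KRAB-En5 replicate 3 stood apart, with 13991 genes listed against 17084 to 19395 in the other 5 libraries and 25.8% of its counts in ribosomal protein genes against 10.8% to 19.4%. Of the genes tested, 50.2% in dCas9-KRAB-En5 replicate 1, 54.0% in replicate 2 and 11.2% in replicate 3 had a TPM (counts per length, scaled to 1000000 per library) above all 3 dCas9-KRAB libraries. Counts of called genes are therefore also given without replicate 3 below. *Myog*, the myogenic transcription factor whose enhancer was targeted, had 43211, 68488 and 74845 counts in the dCas9-KRAB libraries and 12, 0 and 0 in the dCas9-KRAB-En5 libraries (edgeR, adjusted p = 5.34e-05).

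The labels call the cells muscle myoblasts, and their markers were checked. The 8 myotube markers summed to between 15046 and 17241 TPM in dCas9-KRAB and to between 6.26 and 15.8 TPM in dCas9-KRAB-En5, and the 6 myoblast markers to between 444 and 1778 TPM and between 5.45 and 15.5 TPM. The defining muscle markers, such as *Mylpf*, *Acta1* and *Myod1*, were thus at or near 0 in the dCas9-KRAB-En5 libraries. Of 17 macrophage markers, 8 exceeded 10 TPM in every library, and their sum lay between 4090 and 4620 TPM in dCas9-KRAB and between 5519 and 8701 TPM in dCas9-KRAB-En5. Over all 6 libraries *Tyrobp*, *Cd14* and *Fcer1g* had the highest mean TPM. Of the 14 tested, 9 had a positive log2 fold change, as did 52.3% of all genes tested. *Adgre1* was called higher in dCas9-KRAB-En5, beside 1.52% of all genes. Groups without overlap in TPM were seen for 27.5% of all genes tested. *Cd68* (385 ± 99.1 in dCas9-KRAB and 811 ± 233 TPM in dCas9-KRAB-En5) was above dCas9-KRAB in all 3 dCas9-KRAB-En5 libraries without being called. *Aif1* (2.67 ± 0.108 and 0.775 ± 0.361 TPM) and *Mpeg1* (43.2 ± 15.7 and 22.4 ± 5.31 TPM, SD, n = 3) were below dCas9-KRAB in all 3 dCas9-KRAB-En5 libraries without passing the cutoffs, *C1qa*, *C1qb* and *C1qc* were under 1 TPM in every library, and *Mrc1* was at 0 in all 6. The endothelium, the tissue in which this receptor is best known, left few transcripts. Of 14 endothelial markers 6 had no count in any library, among them *Tek*, *Cldn5* and *Erg*, and the list summed to between 4.24 and 13.2 TPM, most of it *Egfl7*. In smooth muscle markers *Acta2* fell, and the list summed to between 168 and 366 TPM in dCas9-KRAB and between 4.81 and 14.4 TPM in dCas9-KRAB-En5. The 7 fibroblast markers summed to between 69.1 and 199.9 TPM and between 19.7 and 37.8 TPM. Macrophage markers were thus abundant in all 6 libraries, and muscle markers were near 0 in dCas9-KRAB-En5. Whether the cells were as labeled was not tested. In these bulk libraries fewer cells of a type and less RNA per cell cannot be told apart, and the part of these cell types in the results below was not tested.

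The RAMP transcripts found beside *Calcrl* differed between the groups. *Ramp2* was found only in dCas9-KRAB libraries, *Ramp3* made up nearly all RAMP transcripts in dCas9-KRAB-En5 libraries, and *Ramp1* was low in both. *Calcrl* itself was low, at 0.902 ± 0.487 TPM in dCas9-KRAB and 3.76 ± 3.45 TPM in dCas9-KRAB-En5 (SD, n = 3), and the groups overlapped. In TPM, *Adm* was high in dCas9-KRAB-En5 replicates 1 and 2 and close to the dCas9-KRAB level in replicate 3. At 1 TPM, *Adm* and a full receptor were both present in 2 of 3 dCas9-KRAB-En5 libraries and in 0 of 3 dCas9-KRAB libraries, and with *Adm2* as the ligand in 2 and 1. *Adm* and *Ramp3*, chosen for their rise, enter these counts, so the difference between the groups is a description only.

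**Figure D1:**
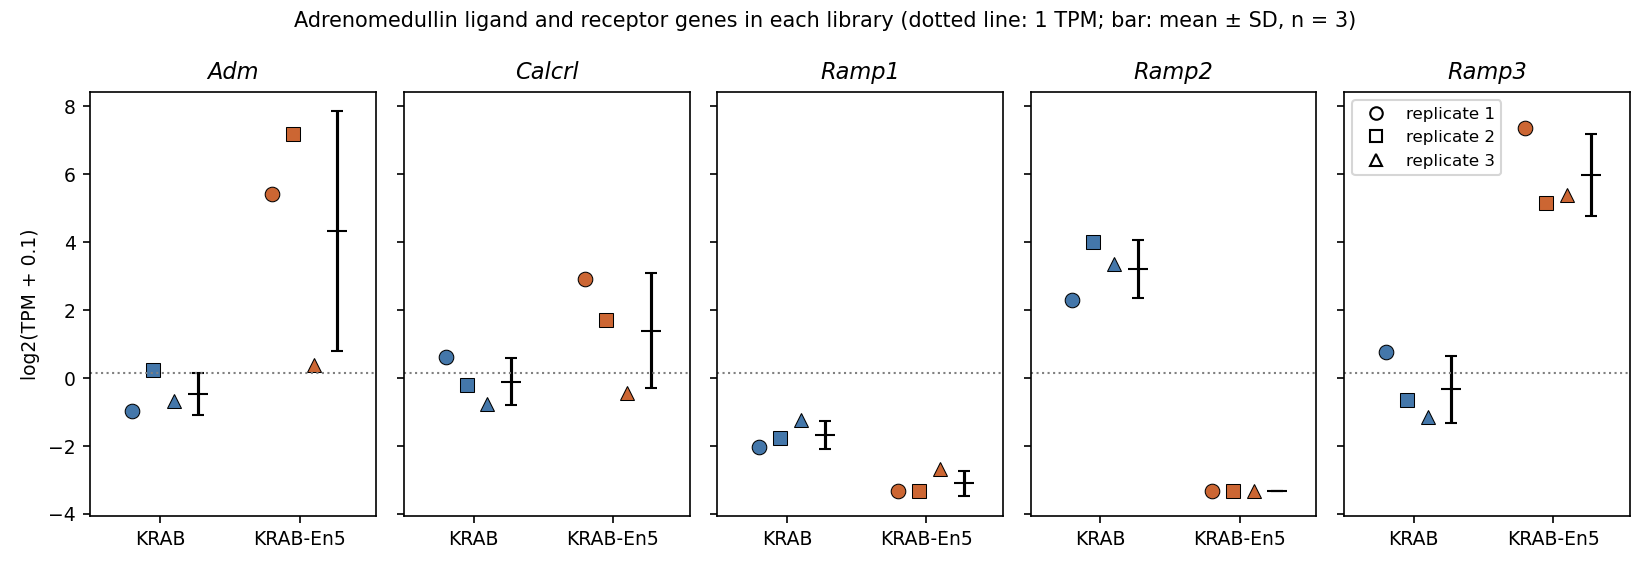
TPM of the 5 genes in each library, as log2(TPM + 0.1) on the y axis, with dCas9-KRAB libraries in blue, dCas9-KRAB-En5 libraries in orange, a symbol for each replicate number and black bars for the mean and SD of 3 libraries. *Ramp2* is at 0 in every dCas9-KRAB-En5 library, *Ramp3* is at 35.8 TPM or more in all 3, and replicate 3 (triangle) lies far below replicates 1 and 2 for *Adm* and *Calcrl*.

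*Adm* (ENSMUSG00000030790), which encodes the precursor of adrenomedullin, lies on chr7:110627661-110629820 (GRCm38, plus strand). In dCas9-KRAB replicates 1 to 3 its counts were 18, 65 and 38, or 0.41, 1.07 and 0.524 TPM. In dCas9-KRAB-En5 replicates 1 to 3 it had 1448, 4000 and 45 counts, or 42.2, 146 and 1.21 TPM. In TPM, replicates 1 and 2 were far above every dCas9-KRAB library, while replicate 3 exceeded the highest of them only slightly. The TMM scaling of the fit gave replicate 3 an effective library size of 23225248, against 68389898 for dCas9-KRAB replicate 2. The margin between these libraries is wider on that scale. The mean was 0.669 ± 0.354 TPM in dCas9-KRAB and 63 ± 74.5 TPM in dCas9-KRAB-En5 (SD, n = 3), so the SD exceeded the mean in dCas9-KRAB-En5. The fitted log2 fold change was 6.005 with an SE of 1.11. Without replicate 3 the mean in dCas9-KRAB-En5 was 94 TPM, and without replicate 2 it was 21.7 TPM. An antisense gene that overlaps *Adm*, *Gm28863*, had no counts in any library.

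The other ligand of these receptors, *Adm2*, which encodes intermedin, went the other way. It had 5.00, 10.1 and 7.74 TPM in dCas9-KRAB and 1.67, 1.59 and 2.19 TPM in dCas9-KRAB-En5. The groups did not overlap, as for 27.5% of all genes tested. Its log2 fold change of -1.98 (SE 0.645) did not pass the cutoffs (edgeR, adjusted p = 0.0549). Without dCas9-KRAB-En5 replicate 3 it passed them, at -2.82 (edgeR, adjusted p = 0.00223), where 25.7% of all genes were called. *Calca* and *Calcb*, the precursors of calcitonin gene-related peptide, and *Iapp*, which encodes amylin, had no counts in any library. In dCas9-KRAB libraries *Adm2* was thus the more abundant adrenomedullin-type transcript per length in all 3, and in dCas9-KRAB-En5 *Adm* was in replicates 1 and 2, whereas in replicate 3 *Adm2* stood at 2.19 TPM and *Adm* at 1.21 TPM.

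*Calcrl* (ENSMUSG00000059588, chr2:84330626-84425411, minus strand) encodes the receptor that binds these peptides together with a RAMP. In dCas9-KRAB replicates 1 to 3 there were 191, 141 and 108 counts, or 1.44, 0.772 and 0.494 TPM. In dCas9-KRAB-En5 it had 771, 263 and 71 counts, or 7.45, 3.18 and 0.635 TPM. Replicates 1 and 2 were above all dCas9-KRAB libraries, and replicate 3 lay within their range. The log2 fold change was 1.65 (SE 0.700), and the difference did not pass the cutoffs (edgeR, adjusted p = 0.124). Over the alternatives the adjusted p ran from 0.0205, without dCas9-KRAB-En5 replicate 3, to 0.608, without replicate 1, where the log2 fold change was 0.757. A call needed an adjusted p not above 0.01 and a log2 fold change of 1 or more in size, the cutoffs of the study's methods. The exact permutation test on the TPM of the 3 against 3 libraries (two-sided) gave p = 0.3, where 0.1 is the smallest p that this design allows.

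*Ramp2* (ENSMUSG00000001240, chr11:101246028-101259546, plus strand) encodes the RAMP of the AM1 receptor, the main adrenomedullin receptor of vessels. The dCas9-KRAB replicates 1 to 3 held 435, 1954 and 1497 counts, or 4.86, 15.8 and 10.1 TPM. In dCas9-KRAB-En5 it had 0 counts in all 3 libraries, which allows up to 3 counts, or from 0.0743 to 0.0942 CPM (counts out of 1000000 in the library), for counting error only. The groups did not overlap, and against a floor of 3 counts per library the dCas9-KRAB-En5 level of *Ramp2* was at least 232-fold lower. It was the only one of the 3 receptor genes open to a test that was called (edgeR, adjusted p = 9.43e-05, exact permutation p = 0.1 on TPM). For comparison, 6.19% of the 14378 genes tested were called in either direction, 4.67% lower and 1.52% higher, and 10.7% were called in either direction when the replicate number was a block in the model. With scaling to total counts alone, 70 genes were called higher and 516 lower, against 219 and 671 here. *Ramp2* was called under every alternative, with an adjusted p of at most 0.00327.

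*Ramp2* shares annotated exons with *Vps25*, a gene of the endosomal sorting machinery on the same strand, and of all 50-base words in *Ramp2* transcripts, *Vps25* held 30.7%. *Vps25* had only 5, 25 and 43 counts in dCas9-KRAB and 2, 10 and 0 in dCas9-KRAB-En5. How reads in the shared stretch were counted is not given in the sources used here. The deposited TPM of *Ramp2* divides by the length of all its exons, 3301 bases, so it would be understated if those reads went to neither gene. With the unshared length alone it would be 7.004, 22.8 and 14.6 TPM in the dCas9-KRAB libraries and still 0 in dCas9-KRAB-En5. No 50-base word was shared between any 2 of the 5 genes, and *Adm*, *Ramp1* and *Ramp3* shared none with another gene.

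*Ramp3* (ENSMUSG00000041046, chr11:6658521-6677475, plus strand) encodes the RAMP of the AM2 receptor. dCas9-KRAB replicates 1 to 3 held 60, 28 and 22 counts of it, or 1.602, 0.542 and 0.356 TPM. In dCas9-KRAB-En5 it had 4780, 837 and 1330 counts, or 163, 35.8 and 42.1 TPM. Every dCas9-KRAB-En5 library, replicate 3 included, was above every dCas9-KRAB library. The mean was 0.833 ± 0.672 TPM in dCas9-KRAB and 80.5 ± 72.0 TPM in dCas9-KRAB-En5 (SD, n = 3), and the fitted log2 fold change was 6.39 with an SE of 0.849. Replicate 1 set much of the mean, which was 38.9 TPM without it. A pseudogene on the other strand that overlaps its 5′ end, *Gm11978*, had 8 counts in dCas9-KRAB-En5 replicate 1 and none elsewhere.

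*Ramp1* (ENSMUSG00000034353, chr1:91179822-91225196, plus strand), whose product makes CALCRL a receptor for calcitonin gene-related peptide, was the least expressed in dCas9-KRAB. It had 12, 22 and 44 counts in dCas9-KRAB, or 0.146, 0.195 and 0.325 TPM, and 0, 0 and 4 counts in dCas9-KRAB-En5, or 0, 0 and 0.0578 TPM. The groups did not overlap, which was true of 27.5% of all genes tested. The log2 fold change of -3.13 (SE 1.46) did not pass the cutoffs (edgeR, adjusted p = 0.158, exact permutation p = 0.1 on TPM). Without dCas9-KRAB-En5 replicate 3, which held all 4 counts of its group, *Ramp1* was called at an adjusted p of 0.00778, and 25.7% of all genes were then called.

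The 300 bases around the annotated starts of *Adm* and *Ramp3* are shown because both genes were higher in the cells with sgRNAs against a *Myog* enhancer. MYOG and the other myogenic factors of its family bind E-boxes, with the letters CANNTG. The windows run from 250 bases before the start to 50 bases after it (RefSeq, GRCm38.p6), and CANNTG is in capitals.
Adm, chr7:110627407-110627706, plus strand: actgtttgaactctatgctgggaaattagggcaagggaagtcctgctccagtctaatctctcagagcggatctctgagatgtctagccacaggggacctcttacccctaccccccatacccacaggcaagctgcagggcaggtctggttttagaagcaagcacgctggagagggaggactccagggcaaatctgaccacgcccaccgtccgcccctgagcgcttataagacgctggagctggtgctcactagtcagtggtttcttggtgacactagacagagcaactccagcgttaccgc
Ramp3, chr11:6658283-6658582, plus strand: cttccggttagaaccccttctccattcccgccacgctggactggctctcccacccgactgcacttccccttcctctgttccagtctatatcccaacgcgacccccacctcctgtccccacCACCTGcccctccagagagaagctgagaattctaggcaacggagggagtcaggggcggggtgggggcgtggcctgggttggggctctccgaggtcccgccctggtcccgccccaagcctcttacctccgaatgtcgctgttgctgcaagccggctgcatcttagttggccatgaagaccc

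The *Adm* window held no CANNTG, and the *Ramp3* window held 1, CACCTG, which starts 130 bases before the annotated start. The *Ramp1* window also held 1, CACCTG, and the *Calcrl* window none. CANNTG occurred in 72.3% of 32851 such windows, so its presence or absence is common. The GC box CCGCCC, searched on both strands like every motif here, occurred 3 times in the *Ramp3* window and once each in those of *Adm* and *Calcrl*, and in 35.7% of all windows. Neither the core of the hypoxia response element, ACGTG (19.6% of all windows), nor the AP-1 letters TGANTCA (7.81%) nor TATAAA (13.6%) occurred in any of the 4 windows. TGACG, the core of the cAMP response element (20.8%), occurred once, in the *Ramp1* window. These are matches of letters within 300 bases and say nothing of binding.

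The order of the 5 genes by TPM, which is per length and can be compared between genes, changed with the group. In dCas9-KRAB the order was *Ramp2*, *Calcrl*, *Ramp3*, *Adm* and *Ramp1*. *Ramp2* was above the others in every library, the ranges of *Calcrl*, *Ramp3* and *Adm* overlapped, and *Ramp1* was below them. In dCas9-KRAB-En5 the order was *Ramp3*, *Adm*, *Calcrl*, *Ramp1* and *Ramp2*. The ranges of *Ramp3* and *Adm* overlapped, as did those of *Adm* and *Calcrl*, whereas *Ramp3* was above *Calcrl* and *Calcrl* above *Ramp1* in every library.

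The share of each RAMP in the summed TPM of *Ramp1*, *Ramp2* and *Ramp3* describes the RAMP transcripts of a library, not their pairing with CALCRL. *Ramp2* held 73.5%, 95.6% and 93.7% in dCas9-KRAB replicates 1 to 3, and *Ramp3* held 24.3%, 3.28% and 3.29%. In dCas9-KRAB-En5 *Ramp3* held 100%, 100% and 99.9%. dCas9-KRAB replicate 1 thus held the largest *Ramp3* share of its group, along with the most *Calcrl* and the least *Ramp2*. The RAMPs together exceeded *Calcrl* in every library, by 4.58 to 21.9 times in dCas9-KRAB and by 11.3 to 66.4 times in dCas9-KRAB-En5, where the highest ratio was in replicate 3 with its low *Calcrl*. No test was made on these shares because *Ramp3* enters them.

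**Figure D2:**
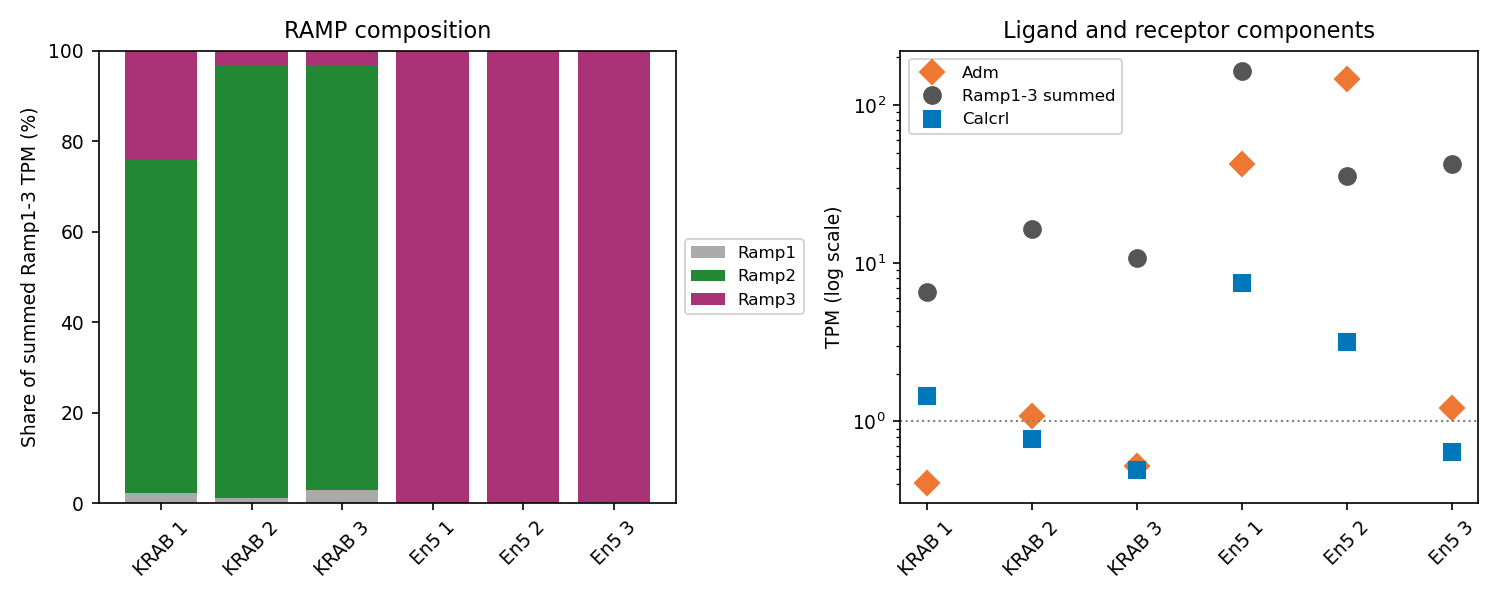
Left, share of *Ramp1*, *Ramp2* and *Ramp3* in their summed TPM in each library, in percent. Right, TPM on a log scale of *Adm*, *Calcrl* and the summed RAMPs in each library, with a dotted line at 1 TPM. The bars change from mostly *Ramp2* (73.5% to 95.6%) in dCas9-KRAB to nearly all *Ramp3* in dCas9-KRAB-En5, and *Calcrl* is below the summed RAMPs in all 6 libraries.

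Whether *Adm* and its receptor occurred together was read from each library, with a gene taken as present at 1 TPM or more and over 3 counts. Because *Adm* and *Ramp3* were chosen for their rise, the counts describe these libraries and do not test a difference between the groups. In dCas9-KRAB replicate 1 *Calcrl*, *Ramp2* and *Ramp3* were present but *Adm* was not, in replicate 2 *Adm* and *Ramp2* were present but *Calcrl* was not, and in replicate 3 only *Ramp2* was. In dCas9-KRAB-En5 replicates 1 and 2 *Adm*, *Calcrl* and *Ramp3* were all present. In replicate 3 *Adm* and *Ramp3* were present while *Calcrl*, at 0.635 TPM, was not. The answer depended on the threshold, since at 0.5 TPM all components were present in 1 of 3 dCas9-KRAB libraries and 3 of 3 dCas9-KRAB-En5 libraries, at 5 TPM in 0 and 1, and at 10 TPM in 0 and 0. With *Adm2* in place of *Adm*, a choice made after its values were seen, ligand and receptor were present at 1 TPM in dCas9-KRAB replicate 1 and in dCas9-KRAB-En5 replicates 1 and 2. *Calcrl* with *Ramp1* was present in no library at any of these thresholds. Presence in a bulk library does not show that the transcripts were in the same cells.

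Beyond the 5 genes, the pathway was followed through 8 lists of genes with known roles. Of their 77 genes other than *Adm* and *Ramp3*, 53 passed the low-count filter, of which 3 were called higher and 2 lower in dCas9-KRAB-En5, beside 1.52% and 4.67% of all genes. One of the 2 that were lower was *Ramp2* itself, and the other was *Ackr3*. The median log2 fold change of the 53 was 1.00, against 0.0755 for all genes tested. Without dCas9-KRAB-En5 replicate 3, 15 of 56 were called higher and 4 lower, beside 1787 higher and 2134 lower of all 15265 genes tested.

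*Ackr3*, a scavenger receptor that takes up adrenomedullin and CXCL12 from the medium, fell. It had 14.4, 10.9 and 11.8 TPM in dCas9-KRAB and 4.67, 3.95 and 1.88 TPM in dCas9-KRAB-En5. The groups did not overlap, as for 27.5% of all genes tested, and its log2 fold change was -2.06 (SE 0.445, edgeR adjusted p = 0.00991). This p lay just within the cutoff, and the call was lost under 11 of 16 alternatives, where the adjusted p reached 0.0831. Of the other genes that act on the ligand, *Pam*, whose product amidates the peptide's C terminus, averaged 5.29 ± 1.36 TPM in dCas9-KRAB and 10.9 ± 8.24 TPM in dCas9-KRAB-En5 (SD, n = 3) and was not called (edgeR, adjusted p = 0.441). *Mme*, which encodes neprilysin, a peptidase that degrades it, had no counts in any library.

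None of the 9 tested genes for receptor accessory and trafficking proteins was called by edgeR with all 6 libraries, with a median log2 fold change of 0.341. Without dCas9-KRAB-En5 replicate 3, edgeR called 2 higher, *Arrb1* and *Nsf*, which encodes an ATPase of membrane fusion, beside 1787 of all 15265 genes. With all libraries, edgeR called 6.19% of all genes. Neither limma-trend fit called any of the 9, and DESeq2 called 1 higher, the β-arrestin gene *Arrb1*. Over all genes, the limma-trend fits called 32 and 66 higher, and DESeq2 called 967 of 23231 higher. Of the 9, 2 had an unadjusted edgeR p under 0.05, and the share of all genes under that p was not worked out. *Grk2*, a kinase that phosphorylates activated receptors, averaged 98.2 ± 49.8 and 127 ± 57.1 TPM in dCas9-KRAB and dCas9-KRAB-En5, and *Arrb2*, the β-arrestin that binds them next, 83.3 ± 27.3 and 60.6 ± 19.3 TPM (SD, n = 3). In TPM both were more abundant than *Calcrl* in every library. *Crcp*, the receptor component protein that couples CALCRL to Gs, was not called either (edgeR, adjusted p = 0.450).

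Among 16 tested genes of Gs, adenylyl cyclases and protein kinase A, 1 was called, beside 6.19% of all genes. This was *Adcy4*, an adenylyl cyclase, which had no counts in dCas9-KRAB and 12, 31 and 49 counts in dCas9-KRAB-En5, or 0.121, 0.391 and 0.458 TPM. Against a floor of 3 counts per library it was at least 19.3-fold higher (edgeR, adjusted p = 0.00899), at a level below 0.5 TPM, and the call was lost under 9 of 16 alternatives. Without dCas9-KRAB-En5 replicate 3, edgeR called 4 genes of this list higher, beside 1787 of all 15265 genes. They were *Adcy4*, the protein kinase A subunits *Prkar2a* and *Prkar2b*, and *Atf1*, a transcription factor that cAMP signaling activates. With any 1 dCas9-KRAB replicate or dCas9-KRAB-En5 replicate 2 left out, edgeR called 0 of this list, and 222 to 518 over all genes. None of the 8 tested cAMP phosphodiesterases, which break cAMP down, was called by edgeR, DESeq2 or limma-trend with all 6 libraries. Of these 8, 4 had an unadjusted edgeR p under 0.05, and the share of all genes under that p was not worked out. Without dCas9-KRAB-En5 replicate 3, edgeR called 3 higher, *Pde4b*, *Pde4d* and *Pde7a*, beside 1787 of all 15265 genes. *Pde4a* averaged 3.57 ± 2.04 and 9.22 ± 5.72 TPM and *Pde4b* 1.12 ± 0.138 and 5.14 ± 4.89 TPM in dCas9-KRAB and dCas9-KRAB-En5 (SD, n = 3).

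Other family B receptors can also pair with RAMPs. Of the 13 listed, 5 had no counts in any library and 3 were tested. Of these 3, *Gipr*, the receptor for glucose-dependent insulinotropic polypeptide, was called higher, beside 1.52% of all genes. It had 3, 1 and 28 counts in dCas9-KRAB, or 0.0318, 0.00767 and 0.180 TPM, and 1063, 1389 and 18 counts in dCas9-KRAB-En5, or 14.4, 23.5 and 0.226 TPM. Its log2 fold change was 6.75 (SE 1.36, edgeR adjusted p = 0.00726), and the call was lost under 5 of 16 alternatives. As with *Adm*, replicates 1 and 2 were far above dCas9-KRAB in TPM, and replicate 3 was only slightly above its highest library on that scale. *Calcr*, the calcitonin receptor, which forms amylin receptors with RAMPs, had no counts in any library.

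**Figure D3:**
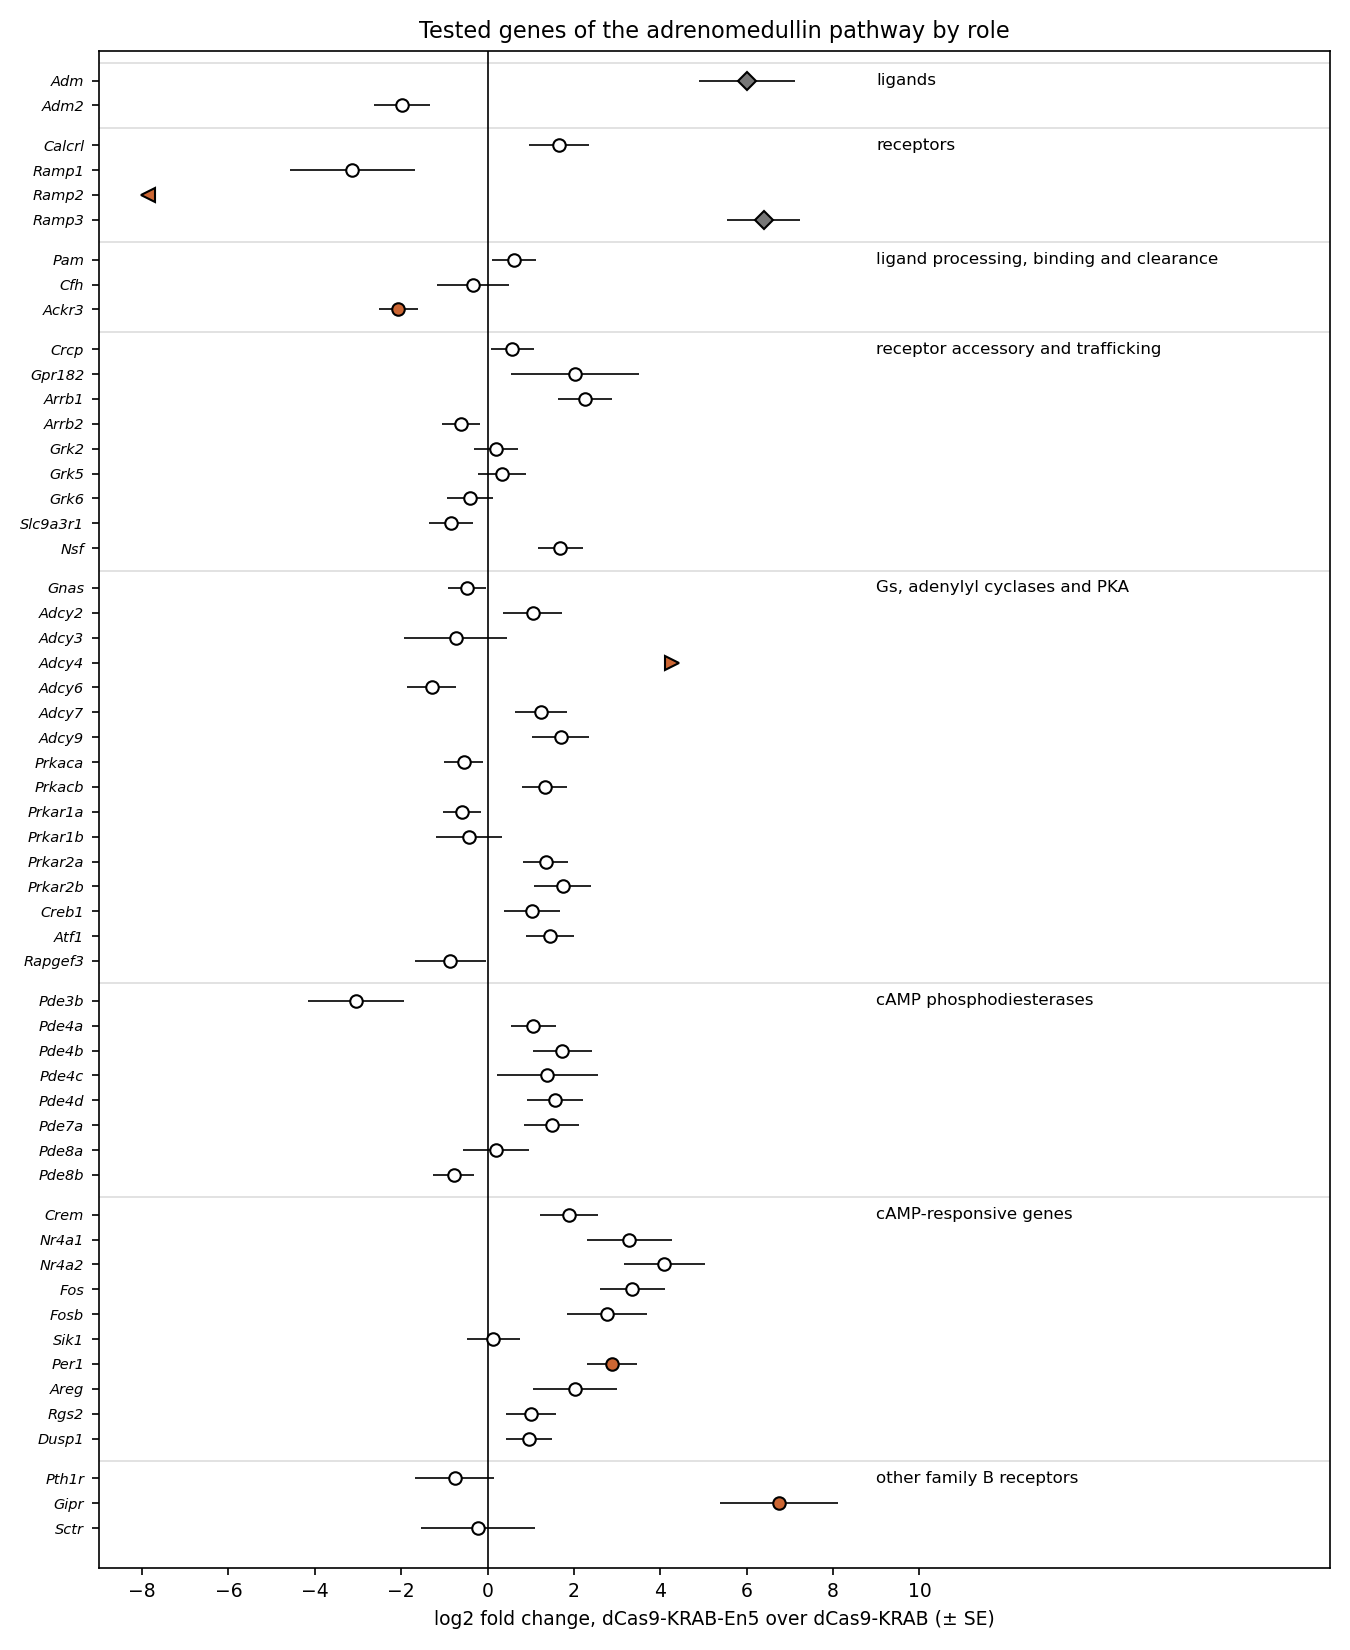
Fitted log2 fold change of dCas9-KRAB-En5 over dCas9-KRAB with its SE for each tested gene of the 8 lists, grouped by role. Orange circles were called, open circles were not, grey diamonds mark *Adm* and *Ramp3*, which were chosen for their rise, and triangles for *Ramp2* and *Adcy4* stand at the bound set by 3 counts per library. No call is read for *Adm* and *Ramp3*. Of the other genes, only *Adcy4*, *Per1* and *Gipr* are called on the higher side and *Ramp2* and *Ackr3* on the lower side.

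Genes that cAMP induces were examined because the receptor raises cAMP. Of the 10 tested, 1 was called by edgeR, where 6.19% of all genes were, with a median log2 fold change of 2.40. DESeq2 called 5 higher, *Nr4a1*, *Nr4a2*, *Fos*, *Fosb* and *Per1*, beside 967 of all 23231 genes, as it was run without the low-count filter. Neither limma-trend fit called any, beside 32 and 66 called higher over all genes. Without dCas9-KRAB-En5 replicate 3, edgeR called 5 of 11 higher, with *Nr4a3* in place of *Fosb*, beside 1787 of all 15265 genes. It called 0 when any 1 dCas9-KRAB replicate or dCas9-KRAB-En5 replicate 1 was left out and 2 without dCas9-KRAB-En5 replicate 2. Over all genes, edgeR called 6, 20 and 23 higher without dCas9-KRAB replicate 1, 2 or 3. Without dCas9-KRAB-En5 replicate 1 or 2 it called 126 and 116 higher. The called gene was *Per1*, a clock gene with cAMP response elements, at 3.82, 14.9 and 11.9 TPM in dCas9-KRAB and 129, 131 and 26.6 TPM in dCas9-KRAB-En5. Its log2 fold change was 2.89 (SE 0.587, edgeR adjusted p = 0.00756), and the call was lost under 8 of 16 alternatives. In dCas9-KRAB-En5 replicate 1, 10 of the 10 genes were above all dCas9-KRAB libraries, in replicate 2 it was 9, and in replicate 3 it was 4, beside the shares of all genes of 50.2%, 54.0% and 11.2% given above.

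*Adm* is also a known target of the hypoxia-inducible factors (HIF), so 23 other genes induced by HIF were listed, of which 22 were tested. In the same comparison 2 were called higher and 1 lower, beside 1.52% and 4.67% of all genes, with a median log2 fold change of 1.82. A block for the replicate number gave 5 called higher, beside 567 of all 14378 genes. No HIF target was called higher when any 1 dCas9-KRAB replicate was left out, 1 was with either limma-trend fit and 8 were with DESeq2. Over all genes, 6, 20 and 23 were called higher without dCas9-KRAB replicate 1, 2 or 3. The limma-trend fits called 32 and 66 higher over all genes, and DESeq2 called 967 of 23231. *Pfkfb3*, a regulator of glycolysis, was called higher, at 1.70, 3.06 and 2.40 TPM in dCas9-KRAB and 92.7, 131 and 6.36 TPM in dCas9-KRAB-En5 (log2 fold change 4.52, SE 0.744, edgeR adjusted p = 0.00243). *Ndrg1*, a stress response gene, was the other, at 34.7 ± 12.4 and 409 ± 289 TPM (SD, n = 3, edgeR adjusted p = 0.00330). *Egln3*, a HIF prolyl hydroxylase that HIF itself induces, fell in all 3 dCas9-KRAB-En5 libraries, from 28.6 ± 6.45 to 1.45 ± 0.431 TPM (edgeR, adjusted p = 0.000117).

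The HIF targets were also compared library by library. In dCas9-KRAB-En5 replicates 1 and 2, 17 and 20 of the 22 were above all dCas9-KRAB libraries, and in replicate 3 only 3 were, beside 50.2%, 54.0% and 11.2% of all genes. Their median log2 ratio to the dCas9-KRAB mean, on the scale of TPM + 1, was 2.24, 2.60 and -0.667 in replicates 1 to 3, against 0.271, 0.373 and -0.455 for all genes tested. For the cAMP-induced genes the medians were 2.11, 1.26 and -0.0418. Without replicate 3, 14 HIF targets were called higher and 1 lower, beside 1787 higher and 2134 lower of all 15265 genes. Whether hypoxia or cAMP played a part in the level of *Adm* was not tested.

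**Figure D4:**
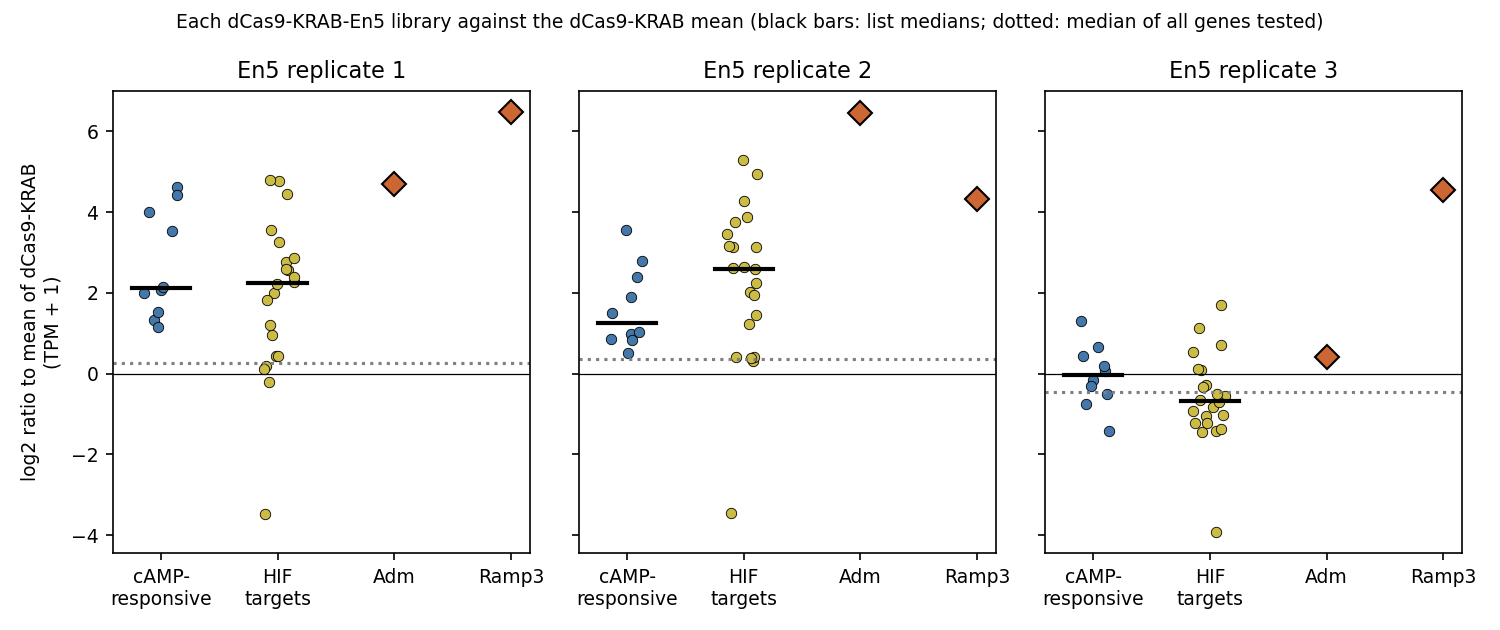
Each dCas9-KRAB-En5 library against the mean of the 3 dCas9-KRAB libraries, as log2 ratios of TPM + 1, for the tested cAMP-induced genes, the HIF target genes, *Adm* and *Ramp3*. Black bars are list medians and dotted lines the median of all genes tested. In replicates 1 and 2 both lists and *Adm* lie above the line for all genes, in replicate 3 the HIF median lies below it at -0.667, and *Ramp3* is high in all 3.

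*Adm* and *Ramp3*, although both higher in dCas9-KRAB-En5, differed in their pattern over the 6 libraries. The Pearson r of their log2(CPM + 1) was 0.663, which is given as a description over 6 libraries that fall into 2 groups. Of 12223 genes whose mean reached 1 CPM, 603 had an r of 0.95 or more with *Adm* and 67 with *Ramp3*. The 5 most like *Adm* were *Nckap1l*, *Ccni*, *Brd1*, *Heatr5b* and *Idua*, with r from 0.996 to 0.999. All 5 were high in dCas9-KRAB-En5 replicates 1 and 2. In replicate 3 their TPM lay within or below the dCas9-KRAB range, whereas *Adm* was slightly above it. An example is *Nckap1l*, a regulator of actin in blood cells, at 16.2, 20.1 and 16.9 TPM in dCas9-KRAB and 54.2, 82.1 and 13.1 TPM in dCas9-KRAB-En5. The 5 most like *Ramp3* were *Inhba*, *Gm10825*, *Urah*, *Gm26581* and *Tspan13*, with r from 0.990 to 0.999. These were above dCas9-KRAB in all 3 dCas9-KRAB-En5 libraries, as for *Inhba*, which encodes the activin A subunit, at 0.427, 0.297 and 0.217 TPM in dCas9-KRAB and 5.50, 2.72 and 2.14 TPM in dCas9-KRAB-En5.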

How the data were processed

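The authors deposited raw counts and TPM per gene for 6 libraries of C2C12 cells, 3 per group as labeled. Per the submitters' processing notes, HISAT2 2.2.1, featureCounts and GRCm38 were used. The annotation release and strand setting are not given in the sources used here. A gene missing from a file was set to 0, and 23155 of 23231 genes matched a symbol.

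Differential expression was tested on counts in R 4.3.3 by the quasi-likelihood method of edgeR 4.0.16, after TMM scaling and filterByExpr (count 10, total 15), with group as the sole term and Benjamini-Hochberg adjustment over 14378 genes. An SE is the log2 fold change over the root of F. Alternatives included DESeq2 1.42.0 and limma 3.58.1 (log2 of TPM + 1 or + 0.1). All replicate pairs differed beyond sampling noise (chi-square per degree of freedom at least 110.2).

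Libraries with the same number deviated together across genes (r = 0.325, 0.331 and 0.418, against -0.0807 or below for other numbers). The numbers come from the labels. The reported fit and the permutation tests leave this pairing out, and a fit with the replicate block was run as an alternative.

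Positions are from GENCODE M21. RefSeq promoter windows matched 4 of 5 genes, all but *Ramp2*. Members and lists were chosen with earlier results of these data known. Named genes were the members, *Myog*, genes overlapping a member, up to 3 called genes per list (with none called, up to 2 of highest TPM), up to 3 markers of highest TPM per list, and the 5 genes most correlated with *Adm* or *Ramp3*. *Pam*, *Crcp*, other macrophage markers, genes called only by DESeq2 or without dCas9-KRAB-En5 replicate 3 and genes at 0 were also named after their values were seen.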

Additional observations from a re-analysis of the deposited data

How the results depend on the processing

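The call of *Ramp2* and that of *Myog* held under every alternative, and *Calcrl* was called under none. *Ramp1* was called without dCas9-KRAB-En5 replicate 3, at a log2 fold change of -7.53 (range over left-out replicates -7.53 to -2.39). The fitted log2 fold changes of *Adm* and *Ramp3*, genes chosen for their rise, are given as a description only. They lay at 4.68 to 6.48 and 5.75 to 7.29 with a replicate left out. Both were lowest with limma-trend on log2(TPM + 1), at 3.87 and 5.18. Pathway genes called higher, 3 in the report, numbered 0 with total counts only or either limma-trend fit, 8 without the low-count filter, 8 with DESeq2, 8 at an adjusted p of at most 0.05 without a fold cutoff, and 0 to 15 with a replicate left out. Those called lower, 2 in the report, numbered 1 with upper quartile or total counts, with at least 10 counts in at least 3 libraries, with either limma-trend fit and with robust estimation, and 1 to 4 with a replicate left out. *Ramp2* was the gene that remained. Each omission of a dCas9-KRAB replicate left 0 or 1 called higher, beside 6 to 23 over all genes. Omission of dCas9-KRAB-En5 replicate 3 gave the 15, beside 1787 over all genes. With all components required at 0.5 TPM, 1 dCas9-KRAB library held ligand and receptor, and of the dCas9-KRAB-En5 libraries 1 did at 5 TPM and 0 at 10 TPM. With *Adm2* as the ligand, also added after the data were examined, 1 dCas9-KRAB library did at 1 TPM. The replicate block changed no call of *Calcrl* (log2 fold change 1.46, adjusted p = 0.0492), *Ramp1* or *Ramp2* and left the pathway counts at 3 and 2. The length correction of *Ramp2* was added after the data were examined and put its mean share in dCas9-KRAB at 90.8% in place of 87.6%. Over all genes 222 to 3921 were called with a replicate left out, 2198 without the low-count filter, 2390 with DESeq2, 586 with total counts only and 514 with limma-trend on log2(TPM + 1), against 890 here. The fit without the low-count filter and DESeq2 covered 23231 genes, against 14378 here. The causes were not tested. A count of 3 equals 0.0405 to 0.0942 CPM, which limits what can be said of genes at 0.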
